A study of Mus musculus with 2 samples.

Results

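The 5 genes described here encode CXC chemokine ligands, Cxcl2, Cxcl3, Cxcl10, Cxcl12 and Cxcl16, and were taken from the count matrices by symbol, 5 of 32285 listed genes. CXC chemokines are small secreted proteins that bind G protein-coupled receptors and steer leukocytes. Cxcl2 and Cxcl3 bind Cxcr2 and draw neutrophils out of marrow and into tissue, and Cxcl10, an interferon-induced ligand, binds Cxcr3 on T and NK cells. Cxcl12, made by the Lepr-positive stromal cells of the marrow niche, holds stem cells, B progenitors and neutrophils in marrow through Cxcr4. Cxcl16 is made as a membrane-bound protein, mainly by macrophages and dendritic cells, and binds Cxcr6.

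Single-cell RNA was measured in 2 droplet libraries. Each held cells flushed from the femoral marrow and cells that adhered to the implant, taken from osteoporotic mice whose fracture was fixed with a nail inside the marrow cavity. In the Mg library the nail was magnesium, and in the Mg-TAGelMA library it was labelled Mg-TAGelMA. GelMA stands for gelatin methacryloyl, a hydrogel, and TA is given without its meaning. The strain, age and number of the mice behind each library are not given in the sources used here, and all groups share the fracture and the nail. The comparison asks how marrow cells differ between the nails. With 1 library per nail no test of the nails was possible, cells are not replicates, and each interval below is a 95% interval that covers counting error only. Library, processing and nail cannot be told apart.

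The matrix of the Mg library listed 9466 barcodes and 58261391 counted molecules (unique molecular identifiers, UMIs), that of the Mg-TAGelMA library 7591 and 79890998. The filters kept 8122 cells of the Mg library (median depth 3803.5 UMIs) and 7226 of the Mg-TAGelMA library (median 6744). The libraries shared 19 cell barcodes. Gm42418, whose gene model lies over ribosomal RNA, made up 6.90% of the kept UMIs of the Mg library and 0.110% of those of the Mg-TAGelMA library, and a version of each result without it is given below where it matters. Cells were assigned to classes by a gate on marker genes, so each class is a range of marker scores and not a sorted type. The tissue label was checked by these gates: most cells fell in the B lineage, neutrophil, erythroid, T and monocyte gates of marrow. Few bone and vessel cells were caught: the stromal gate held 6 Mg cells and 1 Mg-TAGelMA cell, the osteoblast gate 1 and 1, and the endothelial gate 2 and 0.

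Upstream sequences of the neutrophil and interferon ligands are shown because these 3 members had the highest ratios between the libraries. Cxcl2, Cxcl3 and Cxcl10 lie on mouse chromosome 5 (GRCm38), Cxcl2 at chr5:90903871-90905938 and Cxcl3 at chr5:90786103-90789600 on the forward strand, and Cxcl10 at chr5:92346638-92348889 on the reverse strand. Cxcl12 lies at chr6:117168535-117181367 on the forward strand and Cxcl16 at chr11:70453983-70459984 on the reverse strand. The RefSeq promoter table (GRCm38.p6) had entries for 4 of the 5 members. The stretches below run 5′ to 3′ on the gene's own strand and end at the base before the RefSeq start, except that Cxcl2 leaves out the 28 bases that lie inside its gene model, and capitals mark matches to the NF-kB consensus and, in Cxcl10, to the interferon-response pattern, GAAA and GAAA separated by any 2 bases:
Cxcl2 (chr5:90903649-90903870, forward strand): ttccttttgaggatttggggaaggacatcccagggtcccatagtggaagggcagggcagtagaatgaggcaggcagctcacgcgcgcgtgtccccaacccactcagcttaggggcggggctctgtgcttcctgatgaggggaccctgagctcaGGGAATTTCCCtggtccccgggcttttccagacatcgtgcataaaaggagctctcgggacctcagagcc
Cxcl3 (chr5:90785851-90786100, forward strand): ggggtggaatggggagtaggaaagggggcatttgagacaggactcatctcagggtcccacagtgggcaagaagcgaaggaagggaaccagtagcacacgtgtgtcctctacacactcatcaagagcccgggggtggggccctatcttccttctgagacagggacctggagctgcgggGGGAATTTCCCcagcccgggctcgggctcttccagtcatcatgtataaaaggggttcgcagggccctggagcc
Cxcl10 (chr5:92348890-92349139, reverse strand): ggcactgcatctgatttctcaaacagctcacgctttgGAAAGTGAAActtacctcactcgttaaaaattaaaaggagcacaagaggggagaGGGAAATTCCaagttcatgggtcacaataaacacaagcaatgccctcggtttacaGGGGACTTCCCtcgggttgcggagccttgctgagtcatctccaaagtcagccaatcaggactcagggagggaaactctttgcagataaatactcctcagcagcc

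Both patterns were searched on both strands. Cxcl2 and Cxcl3 hold the same run of letters for the NF-kB consensus, whose first base lay 97 bases before the RefSeq start in Cxcl2 and 73 in Cxcl3, and each run also matches on the opposite strand with an overlap. Cxcl10 holds matches that start 159, 104 and 103 bases before the start, of which the last 2 overlap. The NF-kB consensus was present in 7.25% of 32817 promoter stretches of 250 bases. The interferon-response pattern was found in Cxcl10, 213 bases before the start, and in 2.97% of promoters, and was not in the windows of Cxcl2, Cxcl3 and Cxcl12. The Cxcl12 window held no match to the NF-kB consensus. These matches describe letters and show no binding.

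The transcripts differ in the stretch after the stop codon, where copies of ATTTA, the core of AU-rich elements of short-lived mRNAs, were counted on the transcript strand. Cxcl2 held 11 copies in 734 bases, Cxcl3 held 5, Cxcl12 held 4, and Cxcl10 and Cxcl16 held 2 each. Of 20076 coding genes, 4.78% held as many as Cxcl2. Cxcl2 and Cxcl3 share 161 stretches of 31 bases, 7.59% of those of Cxcl2, so a short read inside such a stretch could come from either gene. Neither shared a 31-base stretch with Cxcl1. The introns of the longest coding transcripts come to 957 bases in Cxcl2, 975 in Cxcl3, 1151 in Cxcl10, 3303 in Cxcl16 and 7164 in Cxcl12. Different Cell Ranger versions made the matrices, and whether intronic reads were counted is not given in the sources used here. Art3 overlaps Cxcl10 and Zmynd15 overlaps Cxcl16 on the opposite strand, and strand use in counting is not given in the sources used here.

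Summed over all kept cells, 4 of the 5 ligands had more counts per 1000000 UMIs (CPM) in the Mg-TAGelMA library and Cxcl12 had fewer. Cxcl2 was by far the most abundant, with 4632 UMIs or 84.0 CPM in the Mg library and 37610 UMIs or 502 CPM in the Mg-TAGelMA library, a ratio of 5.97 (5.79 to 6.16). Cxcl3 had 9 and 369 UMIs, 0.163 and 4.92 CPM, a ratio of 30.2 (15.7 to 66.5). Cxcl10 had 109 and 1949 UMIs, 1.98 and 26.0 CPM, a ratio of 13.2 (10.8 to 16.1).

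Cxcl16 had 91 and 223 UMIs, 1.65 and 2.97 CPM, a ratio of 1.80 (1.41 to 2.33). Cxcl12 had 501 and 198 UMIs, 9.08 and 2.64 CPM, a ratio of 0.291 (0.245 to 0.343). A size rule called a gene when its whole interval lay past 2-fold and the higher library had 50 CPM or more. Of the 5 members only Cxcl2 reached 50 CPM in all cells, and it was past the rule on the higher side. Among the 3973 genes that reached 50 CPM, 18.8% were past the rule on the higher side and 7.63% on the lower side, so a call as such was common in this comparison. Fewer cells of a type and less RNA per cell cannot be told apart in these sums.

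**Figure D1:**
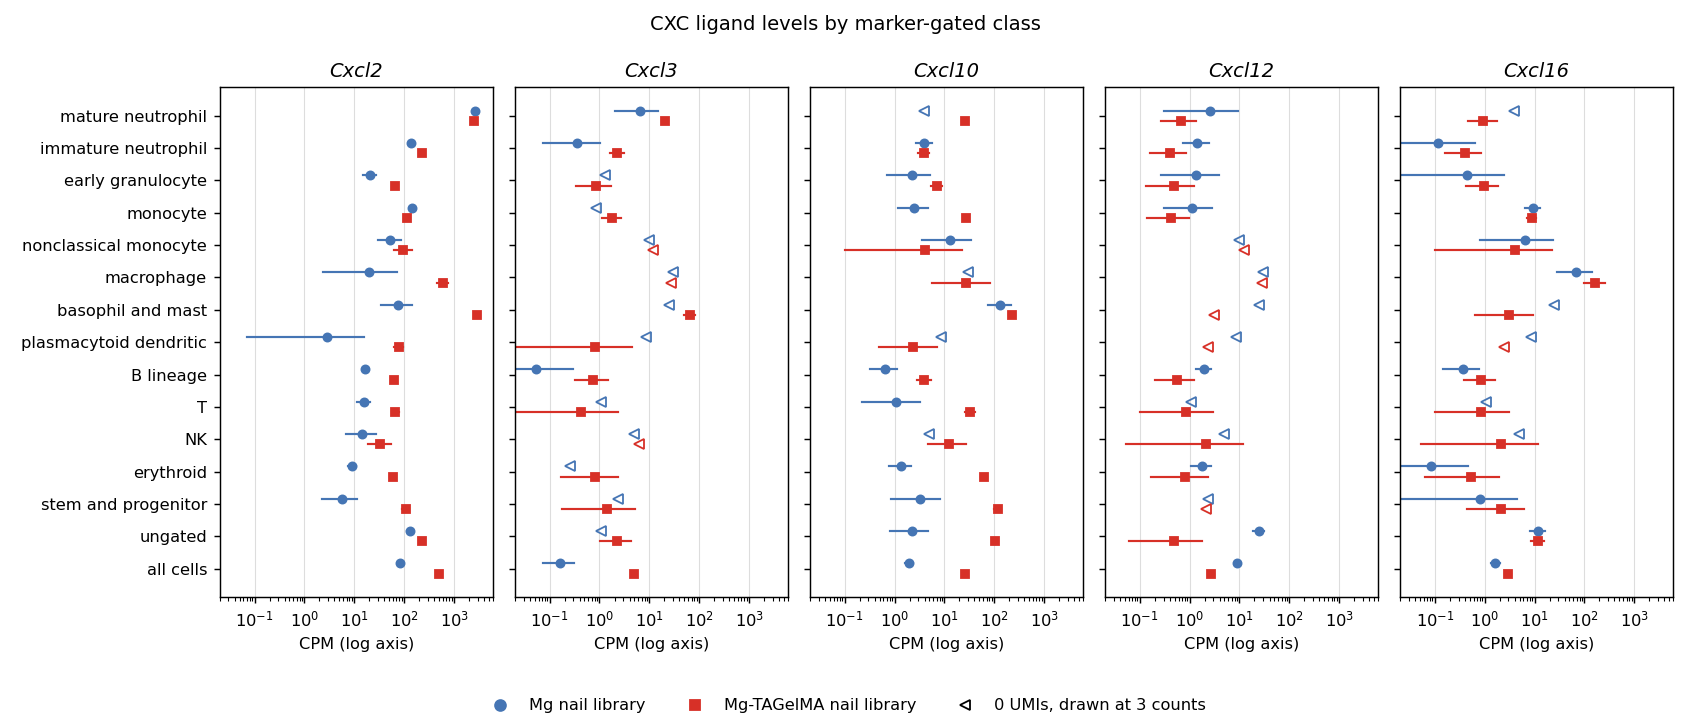
Level of each ligand in CPM (log axis) in the Mg (blue circles) and Mg-TAGelMA (red squares) libraries, with exact Poisson 95% intervals of counting error. Rows are the gated classes with at least 20 cells in a library, apart from plasma cells, and ungated and all cells. Open triangles stand at 3 counts where no UMI was counted; Cxcl2 reaches its highest levels in the mature neutrophil gate of both libraries, at 2632 and 2524 CPM, and in the basophil and mast gate of the Mg-TAGelMA library.

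The neutrophil ligand Cxcl2 was at a similar summed CPM in the mature neutrophils of both libraries, while its median per cell was higher in the Mg-TAGelMA library. Mature neutrophils were also a higher share of cells in that library. The mature neutrophil gate rests on Cxcr2, Csf3r, Retnlg, Il1r2, Mmp9, Msrb1, Stfa2l1 and G0s2. It held 363 cells of the Mg library, 4.47% of cells, with 2045 Cxcl2 UMIs or 2632 CPM (2519 to 2749), and 1960 cells of the Mg-TAGelMA library, 27.1% of cells, with 26655 UMIs or 2524 CPM (2494 to 2555). The ratio was 0.959 (0.917 to 1.004), an interval that includes no difference, and it was 1.23 with TMM scaling and 0.788 with Gm42418 and AY036118 left out of the totals, so its direction follows the scaling. TMM moved all log2 ratios in this gate by 0.36. In this gate 11.7% of 2960 genes were past the size rule on the higher side and 8.89% on the lower side, and no member was. The higher calls were 56.7% of the calls as scaled here, 82.7% with TMM and 32.4% without Gm42418 and AY036118.

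The median of mature neutrophils was 8.64 Cxcl2 UMIs per 10000 in the Mg library, against 15.1 in the Mg-TAGelMA library. Their upper quartile was 37.6 and 34.5, and the highest cell 310 and 454. The cells of the 2 libraries overlap over most of this range. Cells with a Cxcl2 UMI were 63.1% of mature neutrophils in the Mg library, where the median depth was 1724 UMIs, and 89.9% in the Mg-TAGelMA library, where it was 5096.5. Thinned to 1000 UMIs per cell, which left out 604 and 177 shallower cells of the libraries, the shares were 52.8% (47.0 to 58.5) and 65.8% (63.7 to 67.9). These intervals do not overlap. B lineage cells, which are not known to make Cxcl2, gave thinned shares of 1.19% and 6.99%, and unthinned shares of 5.91% at a median depth of 3501 UMIs and 30.4% at 4975.

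In the immature neutrophil gate, which rests on granule genes such as Ltf, Camp and Ngp, Cxcl2 was roughly an order of magnitude lower. It had 1154 UMIs in 1156 cells of the Mg library, 135 CPM (127 to 143), and 3888 UMIs in 1427 cells of the Mg-TAGelMA library, 223 CPM (216 to 230), a ratio of 1.66 (1.55 to 1.77). No member was past the size rule there, against 9.3% of 2935 genes higher and 4.67% lower, and higher calls were 66.6% of calls, 78.7% with TMM and 47.5% without Gm42418 and AY036118. The thinned share of immature neutrophils with a Cxcl2 UMI was 10.7% (8.94 to 12.7) and 15.7% (13.8 to 17.7), so the intervals do not overlap. In the early granulocyte gate, marked by Elane, Mpo and Prtn3, Cxcl2 was at 20.6 CPM (15.2 to 27.5) and 64.2 CPM (58.8 to 69.8), a ratio of 3.11 (2.30 to 4.28).

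Cxcl2 was the member past the rule in early granulocytes, where 8.83% of 3464 genes were past it on the higher side and 3.35% on the lower side. There the higher calls were 72.5% of calls, and 60.5% with TMM. The level of Cxcl2 stood in the order mature, immature, early within each library, with no overlap of intervals between neighbours. The early granulocyte level overlapped that of B lineage cells in both libraries, and thinned shares were 4.59% (1.51 to 10.4) and 6.17% (3.50 to 9.98). Thinned and with the cells gated anew, the early granulocyte ratio was 3.05 (1.52 to 6.96), on 9 and 68 UMIs, and no longer past the rule.

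The boundary between stages bears on these levels. Within 1 marker of another neutrophil stage lay 7 and 3 cells of the mature gate (Mg and Mg-TAGelMA) and 98 and 168 cells of the immature gate. In a clustering of both libraries that left the members out, 362 of the 363 mature-gate cells of the Mg library sat in cluster 0, together with 822 of its 1156 immature-gate cells, and that cluster was named immature neutrophil. Of the 1960 mature-gate cells of the Mg-TAGelMA library, 945 sat in cluster 3 and 952 in cluster 5. Cluster names therefore give no mature level in the Mg library, and the immature ratio of Cxcl2 was 0.307 with them, the reverse of the gate. With the 3 neutrophil gates pooled, Cxcl2 was at 279 CPM (270 to 289) in 1657 cells of the Mg library and at 856 CPM (846 to 865) in 3652 cells of the Mg-TAGelMA library, a ratio of 3.06.

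The neutrophil gates held 70.1% of all Cxcl2 UMIs of the Mg library, against 82.6% in the Mg-TAGelMA library. The mature gate alone held 44.1% and 70.9%. To see how far class shares carried the difference in all cells, each class level was recombined with the class shares of UMIs of the other library. With the levels of the Mg library and the shares of the Mg-TAGelMA library, Cxcl2 came to 438 CPM, 5.22 times the level in the Mg library. With the levels of the Mg-TAGelMA library and the shares of the Mg library it came to 143 CPM, 1.70 times. Both values depend on where the gates divide the neutrophil stages, since with these gates pooled the level itself had a ratio of 3.06.

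**Figure D2:**
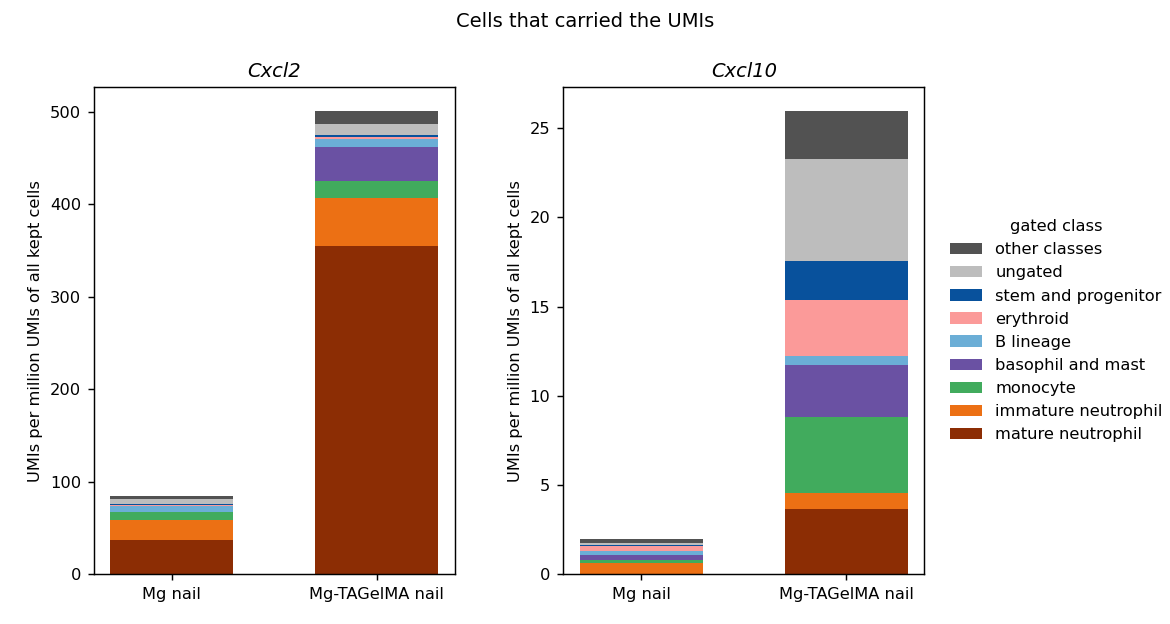
Height of each bar: CPM of Cxcl2 (left) and Cxcl10 (right) over all kept cells in the Mg and Mg-TAGelMA libraries, split by the gated class of the cell that carried them. Mature neutrophils supply 37.1 of 84.0 CPM of Cxcl2 in the Mg library and 355 of 502 in the Mg-TAGelMA library, whereas Cxcl10 in the Mg-TAGelMA library is spread over many classes.

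Outside the neutrophils, Cxcl2 was high in the basophil and mast gate of the Mg-TAGelMA library. This gate rests on Mcpt8, Cpa3, Ms4a2, Fcer1a and other genes of granulated effector cells of allergy. Its 77 cells in the Mg-TAGelMA library held 2765 Cxcl2 UMIs, 2892 CPM (2785 to 3001), a summed level above that of the mature neutrophils of the same library. Of these 77 cells 85.7% had a UMI. Its 21 cells in the Mg library held 9 UMIs, 74.7 CPM (34.1 to 142). The median cell had 14.9 Cxcl2 UMIs per 10000 in the Mg-TAGelMA library against 0 in the Mg library, and the highest had 228 and 9.41. Per cell the mature neutrophils of the Mg-TAGelMA library were not lower, with a median of 15.1 per 10000 and a UMI in 89.9%. Without the cell with the most Cxcl2 UMIs, which held 260, the basophil and mast level of that library was 2651 CPM (2549 to 2757). The mature neutrophil level without its own such cell was 2505 CPM (2475 to 2536).

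With 21 cells this gate is under the 50 cells set for ratios, so none is given. Of the gate's 8 markers a median of 8 were raised in the Mg-TAGelMA cells and 6 in the Mg cells, and of the 8 mature neutrophil markers a median of 1 in the Mg-TAGelMA cells. Thinned, 45 of 76 basophil and mast cells of the Mg-TAGelMA library had a Cxcl2 UMI (59.2%, 47.3 to 70.4), and 2 of 19 in the Mg library (10.5%, 1.3 to 33.1). The 10 cells with the most Cxcl2 UMIs in the Mg-TAGelMA library were 5 mature neutrophils, 4 cells of this gate and 1 ungated cell. Those of the Mg library were 8 mature and 2 immature neutrophils.

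Monocytes, gated on Csf1r, Ly6c2, Ccr2 and others, held 515 Cxcl2 UMIs in 416 cells of the Mg library, 144 CPM (132 to 157), and 1310 in 729 cells of the Mg-TAGelMA library, 112 CPM (106 to 118), a ratio of 0.777 (0.702 to 0.863). It was 1.01 with clusters in place of gates. No member was past the size rule in monocytes, against 14.2% of 3925 genes higher and 1.63% lower. Nonclassical monocytes had 52.4 CPM (29.9 to 85.1) and 96.5 CPM (61.8 to 144), with overlapping intervals. The macrophage gate had 2 UMIs in 29 cells, 19.8 CPM (2.39 to 71.4), and 64 UMIs in 33 cells, 590 CPM (454 to 753), and 7 of the 33 cells carried them (21.2%). A single cell held 51 of the 64, and without it the macrophage level of the Mg-TAGelMA library was 146 CPM (77.6 to 249).

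In lymphoid and erythroid cells the Cxcl2 level was low. In the Mg-TAGelMA library it was 62.3 CPM (57.7 to 67.3) in B lineage, 65.8 (55.9 to 76.9) in T and 58.6 (51.1 to 66.9) in erythroid cells, and the 3 intervals overlap. In the Mg library it was 16.6 CPM (14.9 to 18.6) in B lineage and 15.6 (11.3 to 21) in T cells, with overlap, and 9.04 (7.42 to 10.9) in erythroid cells, below both. Il1b, a cytokine gene of activated myeloid cells, was also counted in these gates of the Mg-TAGelMA library, at 51.8 CPM in B lineage, 39.96 in T and 52.1 in erythroid cells. Levels and shares of this size are not read here as expression. RNA free in the droplets can give UMIs in cells that do not express a gene, and its part here was not tested.

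Cxcl2 was nevertheless past the size rule in these gates, with a ratio of 3.75 (3.27 to 4.30) in B lineage, 4.23 (3.0 to 6.07) in T and 6.48 (5.12 to 8.23) in erythroid cells. The share of genes past it on the higher side was 21.2% in B lineage, 20.5% in T and 14.9% in erythroid cells, and on the lower side 2.47%, 1.81% and 1.54%. The higher calls were 89.6% of calls in B lineage and 75.4% with TMM, and 90.6% in erythroid cells and 66.2% with TMM. After thinning, with the thinned cells gated anew, the T and erythroid ratios were 3.25 and 2.5, no longer past the rule, on 10 and 5 UMIs in the Mg-TAGelMA library. The T gate then held 337 and 148 cells and the erythroid gate 826 and 97, so the cells differ as well as the depth. With called doublets kept, the T ratio was 6.64. NK cells had 14.6 CPM (6.67 to 27.7) and 33.5 CPM (19.1 to 54.4), under the 50 CPM of the rule, where 14.1% of 4242 genes were past it on the higher side.

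Among mature neutrophils, cells with Il1b UMIs were more often cells with Cxcl2 UMIs. With all cells thinned to 1000 UMIs, Cxcl2 was found in 48.8% (45.4 to 52.2) of 851 mature neutrophils without Il1b in the Mg-TAGelMA library. It was found in 68.2% (63.5 to 72.7) of 409 cells with 1 to 2 Il1b UMIs and in 85.6% (82.7 to 88.1) of 686 cells with 3 or more. The mean Cxcl2 count per 1000 UMIs was 1.32, 2.49 and 5.07 in these cells. Before thinning their median depth was 6023, 5257 and 4010.5 UMIs, in the opposite order to Cxcl2.

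In the Mg library the shares were 48.0% (41.7 to 54.4) of 254, 75.8% (57.7 to 88.9) of 33 and 77.8% (52.4 to 93.6) of 18 mature neutrophils, so the last 2 intervals overlap. At a given Il1b level the intervals of the 2 libraries overlap. The mean Cxcl2 count per 1000 UMIs was 2.06, 4.73 and 6.22 there, above that of the Mg-TAGelMA library at each Il1b level. Cells with 3 or more Il1b UMIs were thus few in the Mg library, and Il1b itself was at 414 CPM in mature neutrophils of the Mg library and 2237 CPM in those of the Mg-TAGelMA library, a ratio of 5.40 (4.84 to 6.04) against 0.959 for Cxcl2.

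**Figure D3:**
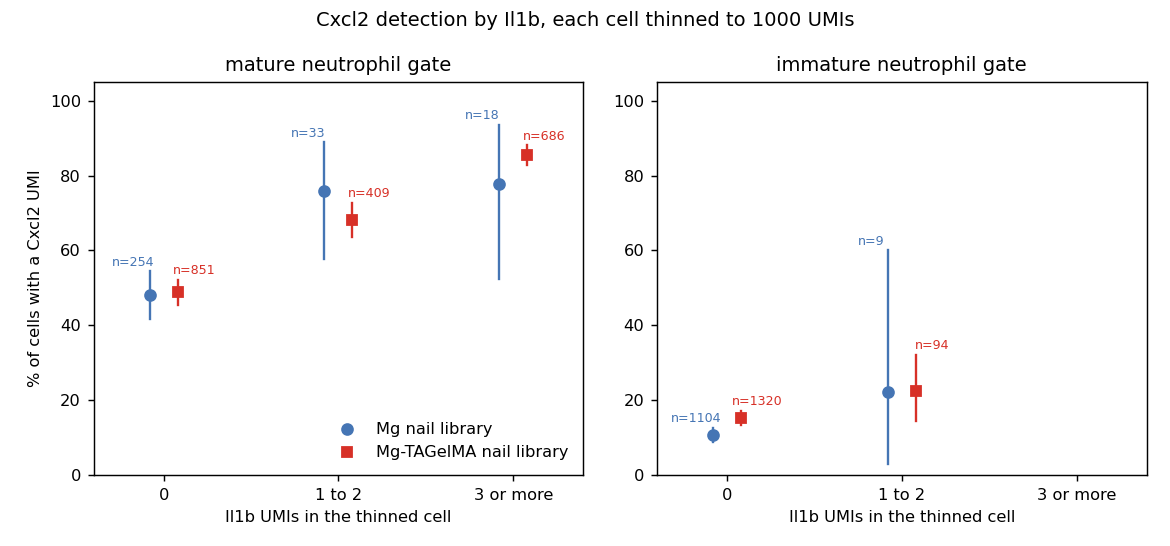
Share of cells with a Cxcl2 UMI (percent, with exact Clopper-Pearson 95% intervals) by the number of Il1b UMIs in the same cell, after each cell was thinned to 1000 UMIs, in the mature (left) and immature (right) neutrophil gates of the Mg (blue circles) and Mg-TAGelMA (red squares) libraries; n is the number of cells. In mature neutrophils of the Mg-TAGelMA library the share is 48.8% without Il1b and 85.6% with 3 or more Il1b UMIs; groups of fewer than 5 cells are not drawn.

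Cxcl3, the close relative of Cxcl2 that binds the same receptor, was rare in both libraries. In the Mg library 7 cells carried its 9 UMIs, and in the Mg-TAGelMA library 197 cells carried 369. Mature neutrophils held 5 of the 9 and 214 of the 369 (58.0%), which is 6.44 CPM (2.09 to 15) and 20.3 CPM (17.6 to 23.2), a ratio of 3.15 (1.33 to 9.80). Immature neutrophils were lower, at 0.350 CPM (0.0722 to 1.02) and 2.24 CPM (1.59 to 3.06).

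The highest level was in the basophil and mast gate of the Mg-TAGelMA library, 62 UMIs or 64.8 CPM (49.7 to 83.1), of which 33 UMIs came from 1 cell. That gate had 0 Cxcl3 UMIs in 21 cells of the Mg library, which allows up to 24.9 CPM by 3 counts. Monocytes had 0 and 21 UMIs, B lineage cells 1 and 8, and T cells 0 and 1. The monocyte level of the Mg-TAGelMA library, 1.79 CPM (1.11 to 2.74), overlapped that of the immature neutrophils, and early granulocytes had 0 and 7 UMIs, 0.839 CPM in the Mg-TAGelMA library. Of the 197 cells with Cxcl3 in the Mg-TAGelMA library, 173 also had Cxcl2 (87.8%), against 61.7% of the cells without Cxcl3. Their median depths were alike, at 6654 and 6754 UMIs, and in the Mg library 5 of 7 cells with Cxcl3 had Cxcl2. Within gates of the Mg-TAGelMA library the gap was smaller: Cxcl2 was found in 94.9% of 118 mature neutrophils with Cxcl3 against 89.6% of those without, in 83.3% of 12 basophil and mast cells against 86.2%, and in 62.5% of 8 monocytes against 63.0%. In immature neutrophils it was 93.1% of 29 cells against 69.6%. Recombining levels and shares gave 6.10 times the level of the Mg library from class shares and 9.46 times from class levels.

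Cxcl10, the interferon-induced ligand of T and NK cells, came from few cells of many gates. In the Mg-TAGelMA library 441 cells (6.10%) carried its 1949 UMIs, and the 22 cells with the most held 50% of them. By cluster the UMIs were less spread. Cluster 23, with 166 cells of that library, of which 85 fell in the erythroid gate, held 690 of the 1949. In the Mg library 63 cells (0.776%) carried 109 UMIs and 13 cells held 50%. The cell with the most held 112 UMIs in the Mg-TAGelMA library and fell in the stem and progenitor gate. The 10 highest cells there, with 37 to 112 UMIs, fell in 6 different sets: 1 in the stem and progenitor gate, 2 erythroid, 2 mature neutrophil, 2 monocyte, 1 basophil and mast and 2 ungated.

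**Figure D4:**
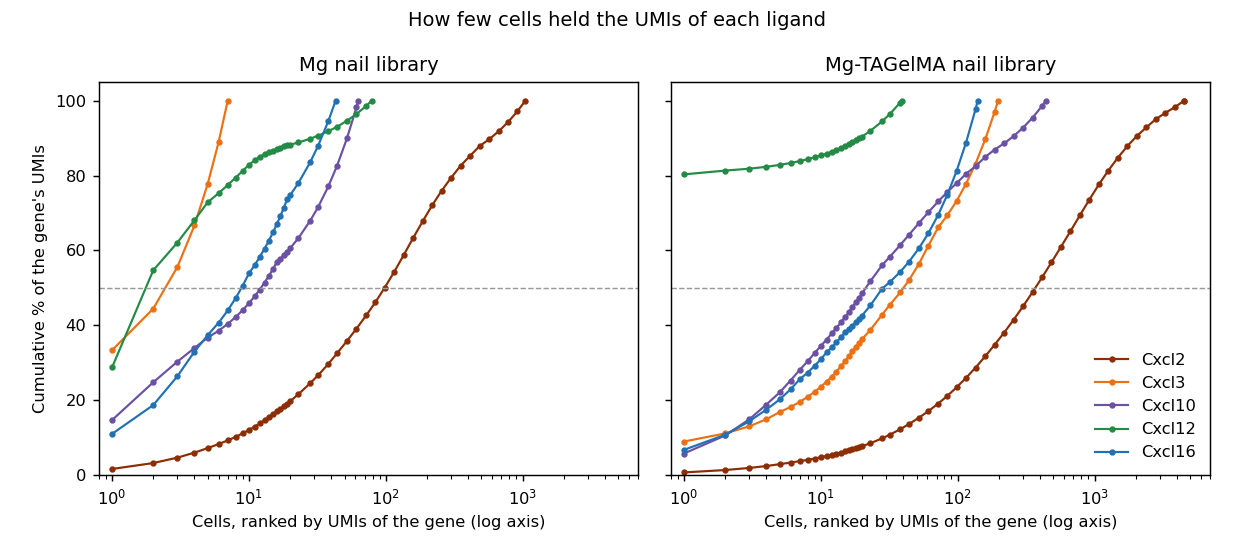
Cumulative percent of a ligand's UMIs against the number of cells, ranked from the cell with the most UMIs (log axis), in the Mg (left) and Mg-TAGelMA (right) libraries; the dashed line marks 50%. Cxcl12 reaches 80.3% in 1 cell of the Mg-TAGelMA library and Cxcl10 50% in 22 cells, while Cxcl2 needs 369 cells.

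By gate, the Cxcl10 level in the Mg-TAGelMA library was highest in basophil and mast cells, at 227 CPM (198 to 259). Stem and progenitor cells had 118 CPM (101 to 138) and ungated cells 106 CPM (95.7 to 116), which overlap, and erythroid cells had 62.6 CPM (54.8 to 71.1). T cells (32.9 CPM, 26.0 to 41), monocytes (27.2, 24.3 to 30.4) and mature neutrophils (25.9, 23.0 to 29.2) came next and overlap. Plasma cells had 38.8 CPM (28.7 to 51.3), 26 of their 49 UMIs in 1 of 41 cells, and NK cells 12.6. Early granulocytes (6.96), B lineage cells (3.95), immature neutrophils (3.85) and plasmacytoid dendritic cells (2.39) were lowest among gates of at least 50 cells. Single cells weighed on the upper end of this order: 1 cell held 84 of 217 UMIs in basophil and mast cells and 112 of 165 in stem and progenitor cells. Without the highest cell of each gate, basophil and mast cells were at 145 CPM (121 to 172) and ungated cells at 87.0 (78.1 to 96.6). Erythroid cells were then at 46.6 (39.8 to 54.1), above stem and progenitor cells at 38.5 (28.8 to 50.3) but with overlap. Of B lineage cells 2.35% had a Cxcl10 UMI, at a median depth of 4975 UMIs, against 12.8% of monocytes at 13127 and 25.9% of erythroid cells at 21743. Because the depths differ, these shares alone do not compare levels. Thinned, the share was 0.118% (0.0144 to 0.427) in B lineage cells, below the other gates. It was 2.22% (1.27 to 3.57) in monocytes and 3.2% (0.879 to 7.99) in erythroid cells, which overlap. The CPM intervals of these gates do not overlap, with or without the highest cell of each. They cover counting error only and treat UMIs of the same cell as independent.

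In the Mg library Cxcl10 was low in most gates. It was at 3.97 CPM (2.75 to 5.54) in immature neutrophils, 2.51 (1.15 to 4.77) in monocytes, 1.34 (0.766 to 2.18) in erythroid cells, 1.09 (0.224 to 3.17) in T cells and 3.17 (0.862 to 8.10) in stem and progenitor cells. Mature neutrophils had 0 UMIs in 363 cells, which allows up to 3.86 CPM by 3 counts. The exception was the basophil and mast gate, at 133 CPM (75.9 to 216), where all 16 UMIs lay in 1 cell of 21.

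Between the libraries, the Cxcl10 ratio was 46.7 (28.2 to 83.1) in erythroid cells and 37.3 (14.3 to 139) in stem and progenitor cells, both past the size rule. Different clusters filled the erythroid gate: of its 999 Mg cells 548 sat in cluster 11 and 328 in cluster 16, and of its 135 Mg-TAGelMA cells 85 sat in cluster 23, which held none of those 999. The median depth of the erythroid gate was 4614 UMIs against 21743, and the part of either in the erythroid ratios of Cxcl10 and Cxcl2 was not tested. In the stem and progenitor gate, of 64 and 55 cells, Cxcl2 was past it as well, at 5.54 and 109 CPM, a ratio of 19.6 (9.30 to 49.7), and 15.1% of 4217 genes were past it on the higher side. Thinned, 1 of 64 and 3 of 55 of these cells had a Cxcl2 UMI. The share in the Mg-TAGelMA library, 5.45% (1.14 to 15.1), overlapped that of its B lineage cells, 6.99% (5.82 to 8.31). A single cell held 29 of the 152 Cxcl2 UMIs there, and without it the level was 91.1 CPM (75.7 to 109). Without the cell with the most Cxcl10 UMIs in each library, the stem and progenitor ratio was 23.7 and the level in the Mg-TAGelMA library 38.5 CPM. The erythroid ratio was then 39.6 and the level 46.6 CPM, so both left the rule through its 50 CPM minimum. With no lead asked of the gate the stem and progenitor ratio was 56.8, and after thinning and gating anew the erythroid ratio was 21.3, on 2 and 5 UMIs.

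Other Cxcl10 ratios stayed under 50 CPM: 30.3 (9.99 to 150) in T cells, 10.8 (5.64 to 23.9) in monocytes, 6.27 (3.24 to 13.1) in B lineage cells and 3.17 (1.28 to 10.1) in early granulocytes. The T ratio was 57.6 (9.87 to 2320) without the cell with the most UMIs, and the monocyte ratio 24.6 with clusters in place of gates. In mature neutrophils it was at least 6.72-fold higher, with the 0 of the Mg library set to 3 counts, at least 4.41-fold without the cell with the most UMIs and at least 1.98-fold after thinning and gating anew. It was 0.969 (0.632 to 1.51) in immature neutrophils, where 34 and 67 UMIs were counted, and 1.05 with TMM. Recombining levels and shares, class shares alone gave 1.85 times the Cxcl10 level of the Mg library and class levels alone 14.5 times. With the gates used here, that is the reverse of Cxcl2.

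Cxcl12, the retention factor of the marrow niche, was counted mostly in a few stromal cells. The 6 cells of the stromal gate in the Mg library held 346 of 501 UMIs (69.1%), and the 1 stromal cell of the Mg-TAGelMA library held 159 of 198 (80.3%). Per cell, the stromal cells of the Mg library held 144, 130, 30, 24, 12 and 6 Cxcl12 UMIs, or 53.1 to 386 per 10000 UMIs. The cell of the Mg-TAGelMA library held 109 per 10000, within that range. The cell with 159 UMIs also held 26 UMIs of the leptin receptor Lepr, 36 of the stem cell factor Kitl and 130 of Igfbp5, and the cell with 144 held 8, 7 and 35.

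Ungated cells of the Mg library held 66 Cxcl12 UMIs, 24.1 CPM (18.6 to 30.6), against 2 UMIs in the Mg-TAGelMA library. Most of the 66 lay in 3 cells, with 37, 11 and 5 Cxcl12 UMIs. The first had 5 of the 11 stromal markers raised, the second had 2 of them and 5 UMIs of Adipoq, a gene of marrow adipocyte-lineage stroma, and the last had none. The endothelial gate of the Mg library held 9 Cxcl12 UMIs, all in 1 cell with 10 UMIs of Cdh5, the vascular cadherin. In all, 12 Mg cells and 1 Mg-TAGelMA cell had 5 or more Cxcl12 UMIs, and they held 85.0% and 80.3% of the gene's UMIs.

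**Figure D5:**
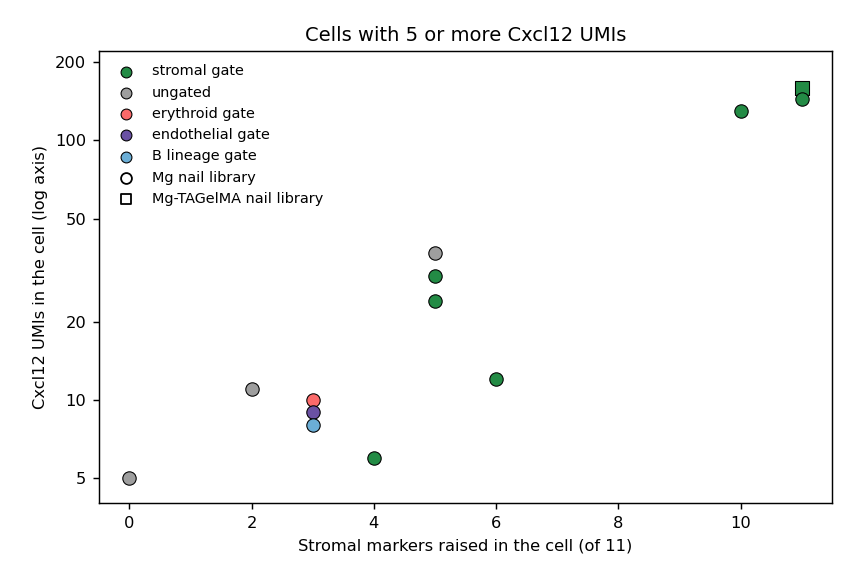
The 13 cells with 5 or more Cxcl12 UMIs, by the number of the 11 stromal markers raised in the cell (x axis) and the Cxcl12 UMIs in the cell (y axis, log), with colour for the gate and shape for the library (circle Mg, square Mg-TAGelMA). The 3 cells with 130 to 159 UMIs have 10 or 11 stromal markers raised.

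In the blood cell gates Cxcl12 was low. B lineage cells had 37 UMIs, 1.94 CPM (1.37 to 2.68), in the Mg library and 6 UMIs, 0.564 CPM (0.207 to 1.23), in the Mg-TAGelMA library. Immature neutrophils had 12 and 7 UMIs, 1.40 and 0.402 CPM, and erythroid cells 21 and 3 UMIs, 1.76 and 0.802 CPM. Of the 37 B lineage UMIs in the Mg library 8 came from 1 cell, and of the 21 erythroid UMIs 10 came from 1 cell, each with 3 stromal markers raised. With the stromal gate left out, 155 and 39 UMIs remained, 2.81 and 0.520 CPM, a ratio of 0.185 (0.127 to 0.264), so the Mg library was also higher outside that gate. The 155 include single cells with 37, 11, 10, 9, 8 and 5 UMIs, and the first had 5 stromal markers raised. Cells outside the gate were thus not free of stromal markers. In the Mg-TAGelMA library no cell outside the stromal gate had 5 or more Cxcl12 UMIs. The all-cell ratio of 0.291 was 0.0804 without the cell with the most UMIs in each library. No ratio within the stromal gate is given.

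Cxcl16, the membrane-bound ligand of Cxcr6, was highest in the mononuclear phagocyte gates. The macrophage gate, which rests on C1qa, C1qb, C1qc, Vcam1 and others, had the highest level among gates of at least 20 cells, 7 UMIs in 29 cells or 69.1 CPM (27.8 to 142) in the Mg library and 18 UMIs in 33 cells or 166 CPM (98.3 to 262) in the Mg-TAGelMA library. These intervals overlap. The 1 osteoblast-gate cell of the Mg-TAGelMA library held 6 UMIs. Conventional dendritic cells had 6 UMIs in 17 cells, 26.2 CPM (9.60 to 56.9), and 2 UMIs in 8 cells, 13.1 CPM (1.58 to 47.3).

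Of the gates, that of monocytes held the most Cxcl16 UMIs, 33 of 91 and 102 of 223, at 9.21 CPM (6.34 to 12.9) and 8.70 CPM (7.09 to 10.6), a ratio of 0.945 (0.632 to 1.44). Ungated cells held 32 and 47 UMIs, 11.7 and 11.6 CPM. Clusters placed these UMIs otherwise. Cluster 22, named macrophage, held 78 of the 91 in the Mg library, and cluster 17, named monocyte, held 6. In the Mg-TAGelMA library cluster 14, named monocyte, held 78 of the 223. Cluster 20 of that library, named plasmacytoid dendritic, held 77, although the plasmacytoid dendritic gate held 0. B lineage, T, NK, erythroid and neutrophil gates were at or under 2.09 CPM in both libraries. Class shares alone gave 1.45 times and class levels alone 1.44 times the level of the Mg library. Thinned to 1000 UMIs, 6 Mg cells and 10 Mg-TAGelMA cells had a Cxcl16 UMI, too few to compare gates.

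The receptors of these ligands were measured in the same cells. Of 8 CXC receptor genes, 2 reached 50 CPM in all cells and 1, Cxcr2, was past the size rule on the higher side, where 18.8% of all measured genes were. The median log2 ratio was 1.11 for the 2, against -0.01 for all genes measured. Cxcr2, the receptor of Cxcl2 and Cxcl3, was at 24.2 CPM in the Mg library, against 78.6 CPM in the Mg-TAGelMA library, a ratio of 3.25 (3.06 to 3.45). Within mature neutrophils, which the gene helps to gate, it was at 575 CPM (523 to 631) and 381 CPM (369 to 392).

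Cxcr4, the receptor of Cxcl12, was at 122 and 176 CPM in all cells, a ratio of 1.44 (1.40 to 1.48), and not past the rule. In B lineage cells, which Cxcl12 holds in marrow, it was at 197 and 430 CPM, a ratio of 2.18 (2.09 to 2.28). That was past the rule as scaled here, as were 21.2% of measured genes in this gate on the higher side. TMM multiplied all ratios of the gate by 0.885, which takes the lower end of the Cxcr4 interval under 2-fold. In mature neutrophils Cxcr4 was at 201 and 251 CPM. Cxcr3, the receptor of Cxcl10, was at 87.5 CPM (65.7 to 114) in NK cells and 49.6 (41.6 to 58.6) in T cells of the Mg library, and at 31.4 (17.6 to 51.8) and 37.5 (30.1 to 46.1) in those of the Mg-TAGelMA library. Cxcr6, the receptor of Cxcl16, was found mainly in T cells, with 169 of 205 and 122 of 171 UMIs, at 61.2 CPM (52.3 to 71.1) and 50.8 (42.2 to 60.6), with overlap.

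Genes of the early NF-kB response, a list that includes cytokines and feedback inhibitors, stood higher in the Mg-TAGelMA library alongside Cxcl2. In all cells 9 of the 13 reached 50 CPM and 7 were past the rule on the higher side, where 18.8% of all measured genes were, with a median log2 ratio of 2.28 against -0.01 over all genes measured. Il1b was 25.5-fold higher, the chemokine genes Ccl3 and Ccl4 9.92-fold and 8.61-fold, and the inflammasome gene Nlrp3 9.51-fold. Within mature neutrophils 4 of 9 were past the rule on the higher side, against 11.7% of all measured genes, and the median was -0.57 against -0.07 for all genes, so the list was split there: Ccl4 was 10.7-fold and Ccl3 8.53-fold higher, while Ptgs2, the inducible cyclooxygenase gene, was at 434 and 291 CPM.

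Of 11 interferon-response genes, 2 reached 50 CPM in all cells and 1 was past the rule on the higher side, against 18.8% of all measured genes. It was Irf1, a transcription factor gene, at 36.3 and 125 CPM, a ratio of 3.43 (3.27 to 3.60). In erythroid cells, where Cxcl10 was past the rule, Irf1 was at 2.60 and 136 CPM, a ratio of 52.3 (36.4 to 77.8), and Tnfaip3, an inhibitor of NF-kB, at 7.45 and 83.4 CPM, in gates filled by different clusters as given above. Of the 4 interferon-response genes measured there, 2 were past the rule on the higher side and 1 on the lower side. Of all measured genes 14.9% and 1.54% were. The median log2 ratio of the 4 was 0.25, against 0.24 for all genes, so the list as a whole was not higher there. Isg15 in all cells was at 29.9 and 27.2 CPM, under the minimum. Of 7 protease genes whose products cleave chemokines, 4 were past the rule on the higher side, against 18.8% of all measured genes, with a median log2 ratio of 1.16: Mmp8, Mmp9, Ctsg and Elane, which neutrophils carry. Within mature neutrophils, which Mmp9 helps to gate, none of the 6 measured was past it on the higher side, against 11.7% of all measured genes. Mmp8 was past it on the lower side, with a ratio of 0.473, against 8.89% of all measured genes. The median log2 ratio was -0.35, against -0.07 for all genes. TMM multiplied all ratios in this gate by 1.28, which leaves that of Mmp8 within 2-fold.

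Of 10 other CXC ligand genes 9 were analysed here and none reached 50 CPM in all cells. Pf4, a platelet chemokine gene, was at 18.9 and 48.6 CPM, most of it in the 5 megakaryocyte-gate cells of each library, with 919 of 1044 and 2894 of 3644 UMIs. Cxcl9, another interferon-induced Cxcr3 ligand, had 41 and 157 UMIs and was at 184 CPM (113 to 285) in the macrophage gate of the Mg-TAGelMA library, all in 3 cells. Cxcl1, a further Cxcr2 ligand, had 1 and 23 UMIs. Of 8 niche factor genes none reached 50 CPM in all cells.

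Genes whose levels went most closely with each ligand were ranked by Pearson correlation of log2(CPM + 1) over 21 class-by-library sums of at least 50 cells, which share libraries and depth. For Cxcl2 they were Ptgs2 (r = 0.96), Hcar2 (0.93), Trpm2 (0.92), Plk3 (0.92) and Acod1 (0.91). For Cxcl3 they were Acod1 (0.94), Ptgs2 (0.91), Cxcl2 (0.88), Aqp9 (0.87) and Csf1 (0.86), so 2 of the first 3 are shared with the Cxcl2 ranking. For Cxcl16 they were Ms4a6d (0.93), Tnip3 (0.89), Ccl2 (0.89), Ccl9 (0.88) and Itgb5 (0.88), of which Ccl2 and Ccl9 encode monocyte-attracting chemokines. Cxcl10 was less close to its first gene, Asap1 (0.87), and Cxcl12 reached 0.66 with Nudt4, the stromal gate being too small to enter.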

How the data were processed

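Single-cell RNA was measured in 2 libraries, 1 for each nail. The deposited values are unnormalized UMI counts for each gene in each barcode, made by the authors with Cell Ranger 5.0.0 (Mg) and 7.0.1 (Mg-TAGelMA), per the file headers. STAR and mm10 are named in the submitters' processing notes. Intron counting is not given in the sources used here.

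Cells with at least 200 genes and at most 15% mitochondrial UMIs were kept, and doublets called with scrublet were removed (197 and 297, or 2.37% and 3.95% of the cells passing the filters). A marker counted as raised in a cell when its share of the cell's UMIs exceeded its mean share over the libraries. A cell joined the class with the highest fraction of raised markers, given at least 3 raised and a lead of 0.1 over any other lineage. Members took no part in gating. UMIs were summed per class and library and scaled to 1000000 UMIs (CPM), with exact Poisson intervals. Ratios divide the Mg-TAGelMA level by the Mg level, with intervals from the exact conditional binomial, in all cells and in the 9 classes that had 50 or more cells of both libraries. Shares of cells have Clopper-Pearson intervals. UMIs of a gene within 1 cell are not independent, so intervals are too narrow. Where 1 library had no UMI, its count was set to 3 and the ratio is a lower bound.

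Alternatives were other scalings (edgeR 4.0.16 TMM, DESeq2 1.42.0 size factors, totals without Gm42418 and AY036118), cell filters, gates, Leiden clusters (33 clusters, 2000 variable genes, 30 components) and thinning to 1000 UMIs per cell. Thinned ratios within a class come from cells gated anew after thinning, while thinned shares of cells keep the gates of the full counts. The ratio and call rule were tested on simulated counts. Python 3.11.15, scanpy 1.11.5, scipy 1.17.1 and R 4.3.3 were used.

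The members and gene lists were chosen with earlier results of these data known, and the scoring of the gate, leaving out the cell with the most UMIs or the stromal gate and pooling the neutrophil gates were set after seeing the data. Named list genes were the 4 with the largest ratio among those past the size rule in a comparison, and for likeness the 5 with the highest correlation. Values of receptors, other ligands, Ptgs2, Irf1, Isg15 and the proteases outside that rule were chosen after they were seen.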

Additional observations from a re-analysis of the deposited data

Results flagged for a closer look

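Ligand UMIs were also counted in barcodes that the cell filters removed, for more than 15% mitochondrial UMIs or fewer than 200 genes, which enter no comparison above. Cxcl2 had 79 UMIs in 1147 such barcodes of the Mg library, 50.2 CPM (39.7 to 62.5), with at most 5 in a barcode. In 68 such barcodes of the Mg-TAGelMA library it had 9 UMIs, 82.3 CPM (37.6 to 156), each in a different barcode. These levels lie below those of all kept cells, 84.0 and 502 CPM, although the interval of the Mg-TAGelMA value is wide.

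Cxcl10 had 10 UMIs in the removed barcodes of the Mg-TAGelMA library, 91.4 CPM (43.8 to 168), of which 9 lay in 1 barcode. Cxcl12 had 26 UMIs in the removed barcodes of the Mg library, 16.5 CPM (10.8 to 24.2), in 9 barcodes, and 16 of them lay in 1 barcode. Cxcl12 in kept cells of that library was at 9.08 CPM. The removed barcodes of the Mg-TAGelMA library held no Cxcl12 UMI, which at 68 barcodes allows up to 33.7 CPM by the exact interval.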

How the results depend on the processing

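All 5 ratios in all cells kept their direction under the 10 alternatives run for each. The Cxcl2 ratio of 5.97 was 5.70 with TMM, 5.75 with DESeq2 size factors, 5.56 with Gm42418 and AY036118 left out of the totals, 5.02 without erythroid cells, 6.48 with at least 500 genes per cell and 5.46 after thinning. After thinning, the Cxcl3 ratio was 69.3, on 1 and 65 UMIs, and the Cxcl12 ratio 0.107, and without the cell with the most UMIs in each library the Cxcl12 ratio was 0.0804. With the stromal gate left out it was 0.185. Alternatives spanned 11.2 to 14.5 for Cxcl10 and 1.49 to 2.13 for Cxcl16. Of the alternative values of class ratios, 110 lay within the interval of the reported value and 27 outside it, as did 46 and 24 of the class levels with clusters, and apart from the construction of each alternative the cause was not tested. No stem and progenitor cluster was found and the NK cluster held under 50 cells of the Mg-TAGelMA library, so clusters gave no ratio there. Genes past the rule in all cells were 747 higher and 303 lower, and 1392 and 695 with a minimum of 10 CPM. With an interval beyond 1.5-fold, 792 were lower. Within classes, 15 of 18 such counts moved by over 1.5 times under either setting. Of the list genes 13 were past the rule on the higher side in all cells, where 18.8% of all measured genes were, and 19 with 10 CPM, where 15.4% were. No paired analysis was possible because each nail has 1 library. Depth limits Cxcl3, Cxcl12 and Cxcl16, which have 0 to 9 UMIs in most classes of the Mg library.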

Other observations

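Within the clustering, chosen here after the values were seen, the levels of Cxcl2 and Cxcl10 differed between clusters. Cluster 5 of the Mg-TAGelMA library, 959 cells in which Il1b was among the leading genes, held 19035 Cxcl2 UMIs, 4503 CPM, and cluster 3, 1067 cells, held 8153, 1193 CPM. The 2 clusters split the mature neutrophils of that library into a part with higher and a part with lower Cxcl2. Cluster 0 of the Mg library, 1264 cells, held 3316 Cxcl2 UMIs, 664 CPM. Cluster 24 of the Mg-TAGelMA library, 81 cells mostly of the basophil and mast gate, was at 2768 CPM of Cxcl2, 59.9 CPM of Cxcl3 and 207 CPM of Cxcl10.

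Cxcl10 reached 117 CPM in cluster 23 of the Mg-TAGelMA library, 166 cells led by genes that include Mecom, Pf4 and Car1. There 63 cells carried 690 of the 1949 Cxcl10 UMIs of that library. In cluster 20 of that library, 235 cells, it was at 51 CPM, carried by 37 cells. Plasmacytoid dendritic was the name and the main gate of this cluster, which held 170 Cxcl10 UMIs. The plasmacytoid dendritic gate held 3, at 2.39 CPM, so the level given for that type depends on gate or cluster. Cxcl16 was at 62.8 CPM in cluster 22 of the Mg library, where 30 of 145 cells carried 78 of its 91 UMIs in that library. It was at 160 CPM, on 9 UMIs, in the 45 cells of that cluster from the Mg-TAGelMA library. Cxcl16 was itself one of the leading genes of that cluster.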
